A study of Drosophila melanogaster with 24 samples.

Results

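Chromatin accessibility in the day 10 brain was compared between flies with and without the replacement histone H3.3, over every peak of the deposited table. The members are the 6 ATAC-seq libraries labelled H3.3null or OreR at day 10 after eclosion, of 24 libraries in the series. In ATAC-seq a transposase cuts and tags exposed DNA, so read counts rise where chromatin is open. OreR is Oregon-R, a laboratory wild-type stock of Drosophila melanogaster, and H3.3null is, from its name and the series' Δ symbol, a stock without functional H3.3 genes. All libraries came from brains of adult females, with 8 brains dissected for a sample and 3 samples in each group. Day 10 libraries of 2 further genotypes, called H3.3H3.2 (by its name, H3.2 in the place of H3.3) and H3.3S31A (by its name, an alanine in the place of a serine of H3.3), and the day 1 libraries of H3.3null and OreR are used only to place the day 10 values. The labels give no alleles, stock backgrounds, dates or batches. A difference shared by all 3 mutants and absent from OreR therefore cannot be told apart from a difference between stocks. The same holds for a difference found in H3.3null alone. No label says that the 3 samples of a group came from separate cohorts, so p-values measure the spread between these samples.

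Histone H3 comes in a replicative form, H3.2 in flies, which is deposited behind the replication fork, and in the replacement form H3.3, which is deposited throughout the cell cycle. H3.3 is encoded in Drosophila by His3.3A and His3.3B, and chaperones such as Hira and the remodeller XNP place it at active genes, at regulatory elements and in repeated DNA. In neurons, which no longer divide, H3.3 accumulates with age because replication-coupled supply has ended. An accessible site in ATAC-seq is a stretch where nucleosomes are displaced or loosely held, as at promoters and enhancers.

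The 6 libraries held 3254312 to 4890579 counts in peaks, and the median count of a peak in a library was 243. The table lists 11145 peaks with a median width of 454 bp on arms 2L, 2R, 3L, 3R, 4 and X. Cell type markers were read as single genes and as sums. elav, an RNA-binding protein of all neurons, had a median of 169 CPM (counts scaled by library size) over its 3 peaks in OreR and 168 CPM in H3.3null. The neuronal gene nSyb went from 90.1 CPM in OreR to 80.9 CPM in H3.3null, and brp from 74.8 to 79.1 CPM. repo, the glial homeodomain factor, stood at 59.2 CPM in OreR and 64.0 CPM in H3.3null. No peak lay at ninaE, Mhc, Hml or Lsp2, defining markers of photoreceptors, muscle, hemocytes and fat body. Yp1, a yolk protein gene read beside them, had 1 peak, at 33.5 CPM in OreR and 37.8 CPM in H3.3null. Summed over the 10 of 11 neuronal markers with a peak, the level was 8764 to 9277 CPM in OreR and 9014 to 9178 CPM in H3.3null. For 10 of 21 photoreceptor markers it was 1548 to 1598 CPM in OreR and 1490 to 1568 CPM in H3.3null. The groups did not overlap for 9 of 15 glial markers, at 1005 to 1032 CPM in OreR and 1043 to 1134 CPM in H3.3null, nor for 5 of 14 fat body markers, at 776 to 793 CPM and 820 to 877 CPM. Over the 4 of 11 hemocyte markers with a peak, the level was 369 to 403 CPM in OreR and 453 to 511 CPM in H3.3null. In this sum 1 PPO2 peak, which also overlaps CG13743, went from a mean of 76.8 CPM to 159 CPM. Over the 3 of 19 muscle markers the level was 1020 to 1131 CPM in OreR and 950 to 1002 CPM in H3.3null. Mef2 held 9 of the 11 muscle peaks and all 3 of the falls among them. The part of these marker differences in the results below was not tested. In a whole brain, a change in the number of cells of a type and a change per cell cannot be told apart.

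At day 10, accessibility differed between H3.3null and OreR at 2732 of 11145 peaks, 24.5% of those tested (edgeR quasi-likelihood test, adjusted p under 0.05). Of these, 1729 peaks (15.5%) rose in H3.3null and 1003 (9.0%) fell. Most changes were moderate: the median of the higher calls was 0.59 on the log2 scale, that of the lower calls was -0.47, and 234 higher and 106 lower peaks changed by at least 2-fold. The median over all peaks was -0.01. In 1656 higher calls (14.9% of all peaks) and 932 lower calls (8.36%) every library of one group lay outside the range of the other.

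**Figure D1:**
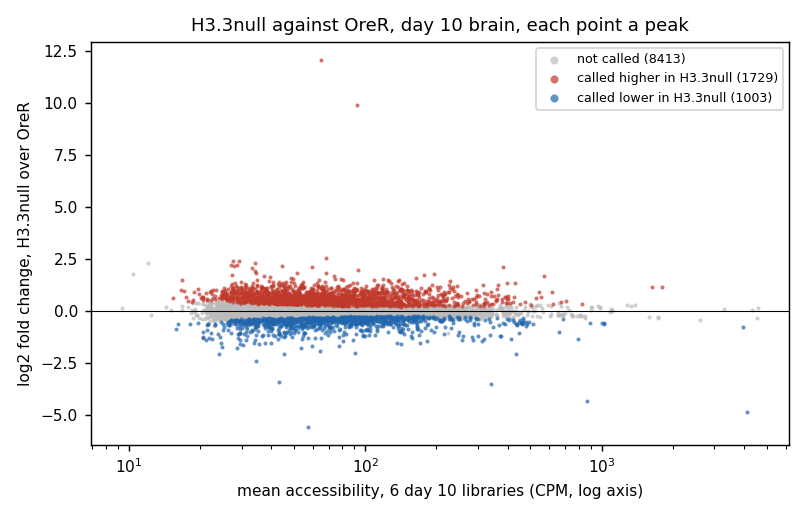
Log2 fold change of H3.3null over OreR at day 10 (vertical axis) against mean accessibility in CPM over the 6 libraries (horizontal log axis), with 1 point per peak. The 1729 higher calls and 1003 lower calls span the range of peak heights, the lowest points on the right belong to the Stellate genes, and the uppermost pair are peaks near the tip of 3L with at most 2 counts in each OreR library, whose fitted fold change depends on the model's prior count.

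The genes for H3.3 themselves were examined first. His3.3B held 3 peaks. The one inside the gene, at X:9154788-9155165, had 45.9, 45.9 and 45.7 CPM in OreR and 18.5, 17.7 and 9.34 CPM in H3.3null. It fell by 1.64 ± 0.18 on the log2 scale (SE, n = 3 against 3, edgeR adjusted p 5.35e-09), and the groups did not overlap. The 3 H3.3H3.2 libraries held 44.0 to 54.6 CPM, and those of H3.3S31A 39.4 to 54.3 CPM. A further peak toward a gene end, at X:9152177-9152538, fell by 0.45 ± 0.10 (edgeR adjusted p 0.000784), and the third, at X:9155649-9156872, had a log2 fold change of 0.11 (edgeR adjusted p 0.396). At His3.3A, the peak at 2L:5055623-5055921 had 27.4, 23.1 and 22.7 CPM in OreR and 65.4, 48.7 and 56.5 CPM in H3.3null. It rose by 1.22 ± 0.17 (edgeR adjusted p 4.25e-07), and all 3 H3.3null libraries lay above all 9 others of day 10. Its neighbour at 2L:5054989-5055227, shared with CG14036, held 45.1 to 61.8 CPM in OreR and 41.6 to 44.0 CPM in H3.3null, and fell by 0.35 ± 0.13 (edgeR adjusted p 0.0479). This call was lost in 7 of 14 other settings. No peak of either gene was empty in H3.3null. The extent of the lesion is not given in the sources used here, so these peaks do not check the label.

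The losses with the smallest p lay at the Stellate genes on the X, a tandem family of near-identical copies which is known for its silencing in testes by the Y-linked Suppressor of Stellate repeats. All 4 peaks of the family fell, beside 9.0% of all peaks. The peak over Ste:CG33237 and Ste:CG33236, at X:14059302-14061610, had 1686, 1703 and 1556 CPM in OreR and 94.0, 72.7 and 82.2 CPM in H3.3null. It was 19.9-fold lower and fell by 4.31 ± 0.11 on the log2 scale (edgeR adjusted p 1.26e-25). The neighbouring peak over 10 copies, at X:14046693-14058848, was the tallest of the family with 8230, 8199 and 7417 CPM in OreR and 301, 238 and 295 CPM in H3.3null. Ste12DOR, a related copy at X:13999847-14000896, stood at 588 to 653 CPM in OreR and 45.2 to 63.5 CPM in H3.3null. In the other mutants the peak over Ste:CG33237 held 171 to 206 CPM, between H3.3null and OreR, and all 4 Stellate peaks were lower in H3.3null than in each of the other genotypes. Reads from copies that share sequence may be assigned to any of them, so the family is one observation rather than 4. The number of Stellate copies in each stock is not given, and accessibility per copy and copy number cannot be told apart.

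Outside this family, CG1894 on 3R (28484257-28486812) had 722, 729 and 646 CPM in OreR and 185, 145 and 178 CPM in H3.3null. It fell by 2.04 ± 0.10 (edgeR adjusted p 1.45e-17). The other mutants held 137 to 163 CPM there, also far below OreR. A peak inside CASK, a scaffold protein of synapses, fell by 1.65 ± 0.16, from 115 to 122 CPM in OreR to 34.8 to 40.8 CPM in H3.3null (3R:21814591-21815072, edgeR adjusted p 4.52e-10). The gene end of AspRS-m, the mitochondrial aspartyl-tRNA synthetase, fell by 1.00 ± 0.09 from 159 to 173 CPM to 80.5 to 88.2 CPM. lncRNA:CR46268, a noncoding RNA gene near the 2L centromere, fell at each of its 4 peaks, with 187 to 212 CPM in OreR and 59.4 to 82.0 CPM in H3.3null at the strongest. A peak beside CG12964 on 2R fell by 2.05 ± 0.21. At CASK, AspRS-m, lncRNA:CR46268 and CG12964 as well, both other mutants lay at the level of H3.3null rather than that of OreR: at CASK their 6 libraries held 30.4 to 38.8 CPM, and at AspRS-m 73.1 to 89.7 CPM.

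At other losses H3.3null was also lower than both other mutants. A peak 379 bp from lncRNA:CR41352, at X:22917877-22918464, had 97.0, 99.4 and 109 CPM in OreR and 32.1, 21.9 and 27.8 CPM in H3.3null, while the other mutants held 86.3 to 110 CPM. It fell by 1.90 ± 0.13 (edgeR adjusted p 1.45e-14; edgeR adjusted p of the largest of the 3 genotype tests 1.9e-13). The pre-mod(mdg4) loci on 3R supply exons that are trans-spliced to mod(mdg4), a chromatin boundary factor. Their lead peak, at 3R:21369226-21369825, had 103, 90.6 and 82.5 CPM in OreR and 45.3, 31.9 and 37.4 CPM in H3.3null, and fell by 1.27 ± 0.15 (edgeR adjusted p 5.28e-08). All 4 peaks at pre-mod(mdg4)-U, -V and -W fell, these overlapping genes share them, and 3 were apart from both other mutants. At the lead peak H3.3S31A replicate 1 held 44.5 CPM, within the H3.3null range, and its other libraries 73.8 and 79.6 CPM.

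Gains with the smallest p were spread over the chromosomes. A peak 142 bp from CG46304, at 2L:18947224-18948173, had 79.6, 77.3 and 88.4 CPM in OreR and 262, 294 and 258 CPM in H3.3null. It was 3.31-fold higher, a rise of 1.73 ± 0.09 (edgeR adjusted p 6.32e-17). H3.3H3.2 held 128 to 140 CPM and H3.3S31A 83.1 to 98.6 CPM, so H3.3null was the highest of the 4. CG14431 on the X rose by 1.77 ± 0.10, from 83.5 to 100 CPM to 264 to 327 CPM, while the 6 libraries of the other mutants held 69.1 to 94.8 CPM. CG9328 on 2L rose by 1.33 ± 0.09, with 197, 208 and 207 CPM in H3.3null against 73.7 to 87.5 CPM in OreR. A peak over Mur2B on the X (1523429-1526041), from 208 to 238 CPM in OreR to 525 to 618 CPM in H3.3null, rose by 1.35 ± 0.10 (edgeR adjusted p 8.52e-13) and stood at 189 to 240 CPM in both other mutants.

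Gains were also found at genes of the small ribosomal subunit. RpS9, on 3L at 9509868-9510743, had 71.1, 71.7 and 72.5 CPM in OreR and 188, 228 and 200 CPM in H3.3null. It rose by 1.52 ± 0.10 (edgeR adjusted p 6.45e-15), and the 6 libraries of the other mutants held 57.5 to 87.0 CPM. RpS23, on 2R at 14215423-14216308, rose by 1.49 ± 0.12, from 62.5 to 67.6 CPM to 164 to 198 CPM; the peak also overlaps mir-308, and the RpS9 peak an antisense RNA and a small nucleolar RNA gene.

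At the white locus, which encodes a transporter of eye pigment precursors, a peak shared by w, kirre and CG32795 had 279, 279 and 251 CPM in OreR and 927, 835 and 856 CPM in H3.3null (X:2789752-2793256). It rose by 1.69 ± 0.09 (edgeR adjusted p 2.37e-16), and the other mutants held 256 to 297 CPM. A second peak over w, at X:2796057-2796767, rose by 1.97 ± 0.18 from 29.5 to 43.4 CPM to 131 to 167 CPM, and in H3.3H3.2 all 3 libraries were at 0. In H3.3S31A it held 0, 0 and 2.0 CPM. A peak inside kirre at X:2888113-2888708 was likewise at or near 0 in both other mutants and present in OreR (99.8 to 113 CPM) and H3.3null (84.9 to 115 CPM). The allele of w in each stock was not analysed here.

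At other gains both other mutants lay with H3.3null. CG18278, on 2R at 13409823-13410233, had 10.7, 8.10 and 11.4 CPM in OreR and 44.7, 47.3 and 45.0 CPM in H3.3null, with 44.9 to 50.7 CPM in the other mutants. sordd2, on the X, rose by 2.21 ± 0.16 from 7.98 to 11.3 CPM to 41.7 to 46.2 CPM. Chpf, an enzyme of chondroitin synthesis, rose by 1.53 ± 0.11 from 56.9 to 68.6 CPM to 171 to 187 CPM, and stood at 189 to 254 CPM in the other mutants.

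Rises at the tips of 2L and 3L were chosen after their values were seen. The first peak of 2L, at 83-4234, had 137, 153 and 134 CPM in OreR and 705, 531 and 634 CPM in H3.3null, a rise of 2.14 ± 0.12 (edgeR adjusted p 2.37e-16). Another 2L peak, at 4361-4651, rose by 2.10 ± 0.20 from 9.32 to 14.5 CPM to 45.2 to 60.7 CPM (edgeR adjusted p 8.62e-11). The first peak of 3L, at 1516-2437, rose by 2.58 ± 0.16 from 16.2 to 24.2 CPM to 100 to 143 CPM (edgeR adjusted p 5.13e-15). In the other mutants the first 2L peak held 294 to 413 CPM and the first 3L peak 41.1 to 53.1 CPM, between OreR and H3.3null. Further along 3L, a peak 301 bp from mthl8 (26609-27217), a member of a G protein-coupled receptor family, was at 0 in all OreR libraries and at 131, 140 and 118 CPM in H3.3null. It was at least 179-fold higher against a floor of 3 counts per library (edgeR adjusted p 0.000113). The peak at 3L:40021-40762 had 2 counts in 1 OreR library and none in the others, with 189, 209 and 156 CPM in H3.3null, at least 255-fold higher. At both, H3.3S31A replicate 1 was at 0 and replicates 2 and 3 held 17.4 to 53.6 CPM, so libraries of one label differed. The sequence and copy number at these tips in each stock are not given. Accessibility and the amount of sequence present therefore cannot be told apart there.

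**Figure D2:**
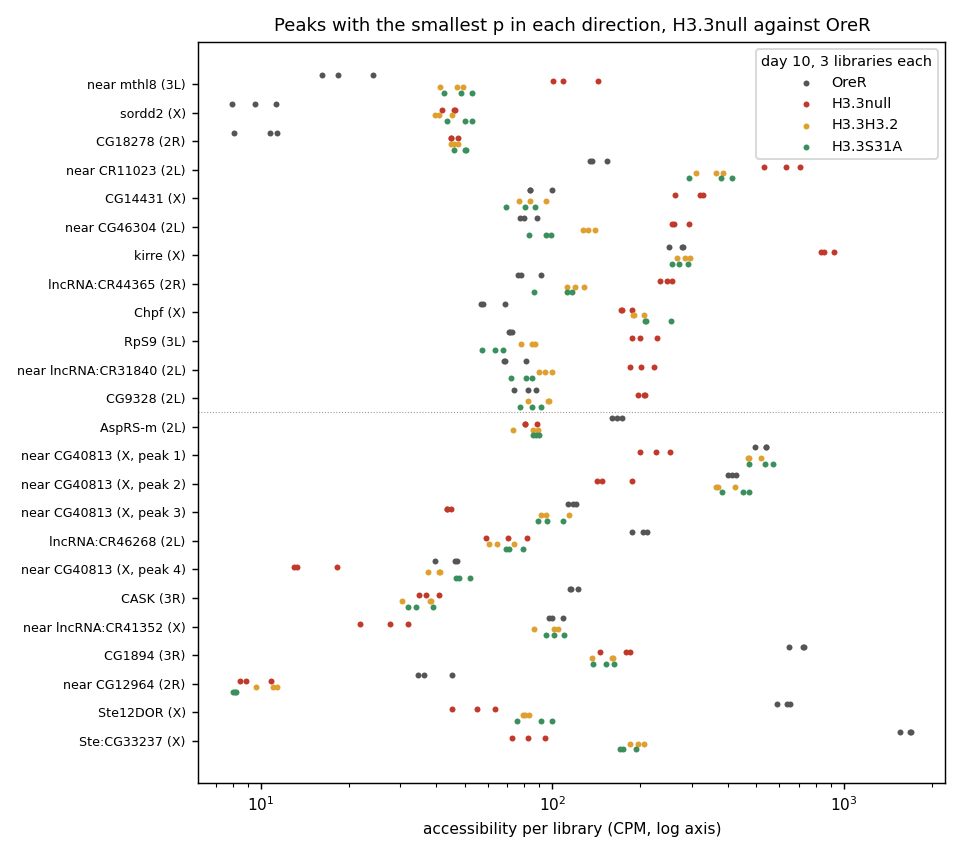
Accessibility in CPM (log axis) of each day 10 library at the 12 higher and 12 lower peaks with the smallest p, named by the overlapped or nearest gene, with 3 points for each genotype and a dotted line between rises and falls. No H3.3null point overlaps an OreR point at these peaks, which was a condition of choosing them, while H3.3H3.2 and H3.3S31A lie with H3.3null at some (CG18278, CG1894, CASK) and with OreR at others (CG14431, RpS9).

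All 12 higher and all 12 lower peaks of that choice were also called in the same direction in the separate day 1 libraries, with day 1 log2 fold changes of 1.08 to 2.35 and of -4.49 to -1.17. Over all peaks, 1572 were higher and 1185 lower at day 1, 24.7% in all. Of the day 10 higher calls, 1151 were higher at day 1 too, 66.6% of the day 10 calls and 73.2% of the day 1 calls. Of the lower calls, 579 were shared, 57.7% of the day 10 and 48.9% of the day 1 calls. Only 3 peaks were called higher at day 10 and lower at day 1, and 0 the reverse. Day 10 and day 1 effects had a Pearson correlation of 0.86 over 11145 peaks, given as a description since the genotypes are the same and no library is shared. The test of the difference between the day 10 and day 1 effects called 0 peaks with edgeR (0% of 11145), with 985 at an unadjusted p under 0.05 and a smallest adjusted p of 0.0571, and DESeq2 called 7.

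The changed peaks were unevenly placed. Regions next to the centromeres, taken as 2L from 22 Mb, 2R up to 6 Mb, 3L from 23 Mb, 3R up to 5 Mb and X from 22 Mb, held 15.6% of peaks, 22.7% of the higher calls and 30.7% of the lower calls. Of 1744 pericentromeric peaks 22.5% rose and 17.7% fell. The stretches of neighbouring changed peaks described below are defined by the calls, so leaving them out removes calls by construction. Outside them 9.32% of 1330 pericentromeric peaks rose, beside 12.5% of all 10565 peaks there, and 16.2% fell, beside 8.51%. The direction differed by arm. Near the 2R centromere 48.7% of 645 peaks rose and 3.88% fell, and outside the stretches 13.9% of 337 rose and 7.12% fell. Near the centromere of X 48.3% of 120 peaks fell, and outside the stretches 20% of 75. Near that of 3L 26.5% of 449 peaks fell and near that of 3R 21.6% of 430, and outside the stretches 19.8% and 20.2%. On chromosome 4, a small and largely heterochromatic chromosome, 24 of 77 peaks (31.2%) rose and 6 (7.79%) fell, beside 15.5% and 9.0% of all peaks. One of the rises lay in ATPsynbeta, a subunit of the mitochondrial ATP synthase, with 29.2 to 34.4 CPM in OreR and 70.3 to 79.2 CPM in H3.3null.

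Peaks at gene ends changed less often than peaks elsewhere. Within 500 bp of either end of a gene, 9.94% of 4156 peaks rose and 7.19% fell, against 19.0% and 8.03% of 4709 peaks inside genes. Outside genes, up to 5 kb away, 19.2% of 1046 rose and 9.08% fell, and farther away 17.7% of 1234 rose and 18.7% fell. With the stretches left out, 9.06% of 4107 peaks at gene ends rose and 15.3% of 4449 inside genes. Outside genes it was 16.6% of 1007 up to 5 kb away, and 10.7% of 1002 farther away, where 13.8% fell. Outside pericentromeric regions and chromosome 4 the share of rises climbed with distance from a gene end, from 6.38% of 2023 peaks within 100 bp to 11.9%, 15.4%, 18.4%, 19.3% and, between 2001 and 5000 bp, 19.6% of 1329. It was 14.2% between 5001 and 10000 bp and 13.9% beyond. The share of falls stayed between 6.26% and 9.83% in the same bins. The annotation used gives no strand, so the start and the other end of a gene are not separated.

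**Figure D3:**
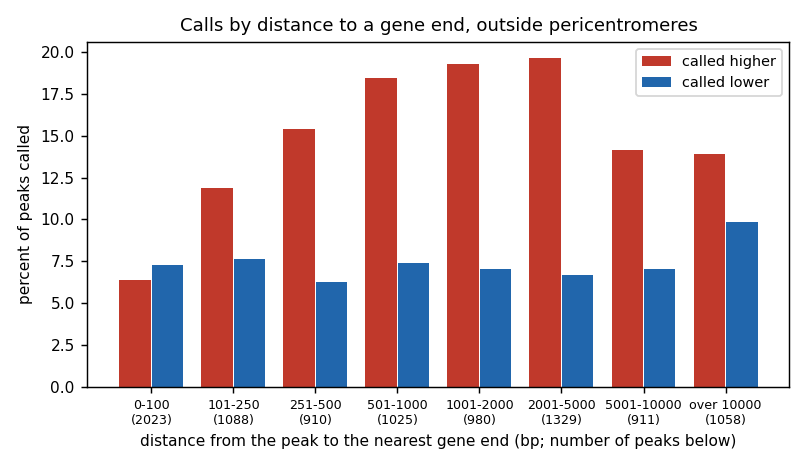
Percent of peaks called higher and lower in H3.3null at day 10, by distance in bp to the nearest gene end, outside pericentromeric regions and chromosome 4, with the number of peaks in each bin below it. Rises go from 6.38% within 100 bp to 19.6% between 2001 and 5000 bp, while falls stay between 6.26% and 9.83%.

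Peak height and width moved with these shares. Peaks were divided into 4 equal classes by their level in OreR at day 1. These libraries were not contrasted at day 10, but they entered the same model and share the genotype of the day 10 baseline. Day 10 and day 1 effects had a Pearson correlation of 0.86 over all peaks. A peak that is low in OreR at both ages therefore tends both toward the lowest class and toward a higher call. The part of this dependence in the shares by class was not tested. In the lowest class 22.6% rose and 4.56% fell, and in the highest 10.9% rose and 14.4% fell. Wide peaks changed more often: of 297 peaks of 2000 bp or more 26.6% rose and 18.5% fell, and of 2587 under 300 bp 9.55% rose and 7.07% fell. With the stretches left out, 16.9% of 225 peaks of 2000 bp or more rose and 15.1% fell. Of 2548 under 300 bp 8.40% rose and 7.14% fell. Peaks within 100 bp of a gene end had a median width of 301 bp. In each class of height, taken outside pericentromeric regions, rises were still scarcer within 100 bp of a gene end than at 500 bp to 5 kb: 8.07% against 27.7% in the lowest class, 4.55% against 18.6%, 6.75% against 17.9%, and 5.18% against 13.1% in the highest. The part of width in the distance pattern was not tested.

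**Figure D4:**
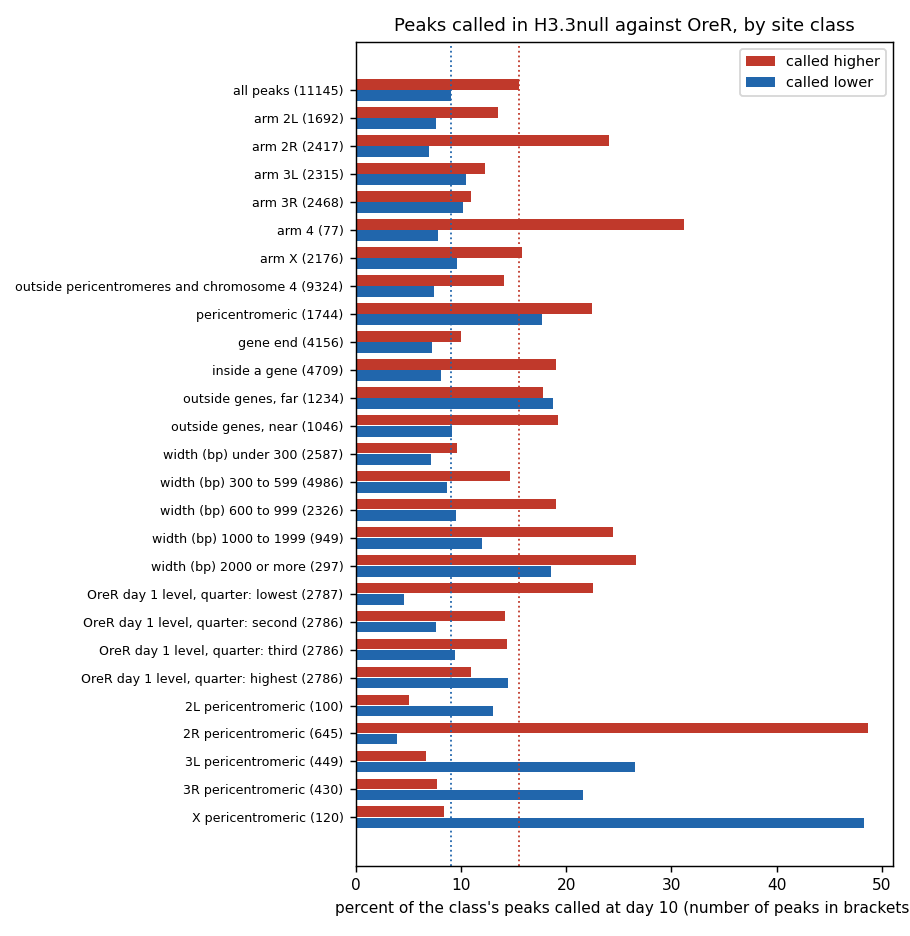
Percent of the peaks in each site class called higher and lower in H3.3null against OreR at day 10, with the number of peaks in brackets and dotted lines at the shares over all peaks (15.5% and 9.0%). Pericentromeric 2R has 48.7% rises and pericentromeric X 48.3% falls, while gene ends lie below the shares of all peaks at 9.94% and 7.19%. Outside the stretches of neighbouring changed peaks, which the calls themselves define, the 2R and X shares are 13.9% and 20%.

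Neighbouring peaks often changed together. Windows of 10 successive peaks with at least 8 called in 1 direction, joined where at most 50 kb apart, gave 19 stretches, a definition chosen after the values were seen. They held 580 peaks, 404 of the higher calls (23.4%) and 104 of the lower calls (10.4%). The longest ran over 2R:329233-1370369. Of its 308 peaks 267 rose and 1 fell, with a median of 0.80 on the log2 scale, or 1.74-fold. The stretch took 3.28%, 3.36% and 3.11% of counts in OreR and 4.92%, 4.24% and 4.80% in H3.3null, and also 4.75% to 4.96% in H3.3H3.2 and 4.29% to 5.23% in H3.3S31A. H3.3null did not stand apart there: its median log2 difference was -0.04 from H3.3H3.2 and -0.07 from H3.3S31A, and 0 peaks were called apart from both.

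Of its 308 peaks 158 overlap a gene. DIP-lambda, an immunoglobulin-domain surface protein whose family pairs with Dpr proteins in neuronal wiring, spans 120 peaks, of which 105 rose and 0 fell, with a median of 0.77. Its lead peak, at 2R:333267-334799, had 101, 92.1 and 92.2 CPM in OreR and 207, 163 and 214 CPM in H3.3null, and rose by 1.03 ± 0.11 (edgeR adjusted p 1.06e-09). The other mutants held 182 to 232 CPM. rl, the ERK-type MAP kinase of flies, rose at 14 of 15 peaks with a median of 1.08, and CG40498 at 8 of 8 with a median of 0.93. The lead rl peak, at 2R:1104715-1105605, held 35.2 to 52.4 CPM in OreR and 109 to 139 CPM in H3.3null. In the same gene the tall peak at 2R:1097581-1101772 had a log2 fold change of 0.25 (edgeR adjusted p 0.116), with overlapping libraries at 583 to 644 CPM and 634 to 784 CPM.

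The stretch of falls with the most peaks, at X:21957133-22119882, overlapped no gene. Of its 58 peaks 55 fell and 0 rose, with a median of -0.63, and it took 1.45%, 1.49% and 1.41% of counts in OreR and 0.953%, 0.786% and 0.887% in H3.3null. Here H3.3H3.2, at 1.35% to 1.44%, and H3.3S31A, at 1.33% to 1.60%, lay at the OreR level, and 42 peaks were lower in H3.3null than in each other genotype. A pair of peaks in it had nearly the same heights: at X:22004614-22008523 OreR held 524, 525 and 497 CPM and H3.3null 256, 200 and 223 CPM, and at X:22044208-22048119 OreR held 539, 538 and 494 CPM and H3.3null 252, 199 and 226 CPM. Whether peaks of this stretch share sequence was not tested, so they may not be separate observations. The amount of this sequence in each stock is not given, and it cannot be told apart from accessibility. On 3L, 15 of 16 peaks at 26638008-26735963 fell with a median of -1.15, none over a gene, and 9 were apart from both other mutants. The longest stretch of falls, 3L:27429505-27713478, had 8 of 10 peaks lower with a median of -0.70, also with no gene overlapped. Further stretches of falls lay on 3L around lncRNA:CR46482 (17 of 25 peaks) and on 3R in Myo81F, a myosin gene next to the centromere (8 of 10).

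The 13 stretches of rises away from the centromeres took a larger share of counts in each H3.3null library than in any of the other 9 day 10 libraries. ush, a cofactor of GATA factors, rose at 10 of 14 peaks. Its 4 peaks between 482158 and 491022 of 2L had log2 fold changes of -0.11 to 0.12 and were not called, while every peak between 499128 and 539048 rose, by 0.38 to 1.07. The stretch over ush took 0.0715% to 0.0741% of counts in OreR and 0.119% to 0.127% in H3.3null. mam, a nuclear coactivator of Notch, rose at 15 of its 23 peaks and fell at 2. The peak at 2R:14004469-14005061 had 44.9, 39.8 and 34.5 CPM in OreR and 115, 123 and 116 CPM in H3.3null, a rise of 1.57 ± 0.11 (edgeR adjusted p 2.73e-13), and 40.1 to 62.4 CPM in the other mutants. Within the same gene the peak at 2R:14031318-14031862 fell by 0.74 ± 0.09, from 156 to 175 CPM to 93.9 to 102 CPM, and there the other mutants lay with H3.3null at 90.6 to 119 CPM.

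Other gene-sized stretches were alike. EDTP, a phosphoinositide phosphatase, rose at 7 of 8 peaks and Ptp4E, a receptor tyrosine phosphatase, at 7 of 8. beat-Ib, an immunoglobulin-domain protein of the family that steers motor axons, lay in a stretch of 8 peaks that all rose; its lead peak, at 2L:15914517-15915764, held 91.8 to 94.5 CPM in OreR and 179 to 203 CPM in H3.3null, with 79.1 to 110 CPM in the other mutants, and 1 beat-Ib peak outside the stretch fell. lncRNA:CR44365 and lncRNA:CR44366 rose at all of their 5 peaks, led by 2R:13577413-13578358 with 76.4 to 91.0 CPM in OreR and 234 to 256 CPM in H3.3null. The stretch beside lncRNA:CR31840 rose at 9 of 9 peaks, with a median of 1.21. Appl, the fly amyloid precursor protein-like gene, rose at 7 of 12 peaks without forming a stretch; its lead peak went from 30.7 to 34.9 CPM to 52.7 to 65.6 CPM. In all, 63 of 5545 genes with a peak had at least 3 higher calls and none lower, and 11 had at least 3 lower and none higher. Overlapping genes share peaks and are counted singly, as pre-mod(mdg4)-U, -V, -W and -X are among the 11, so these are not counts of separate loci.

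**Figure D5:**
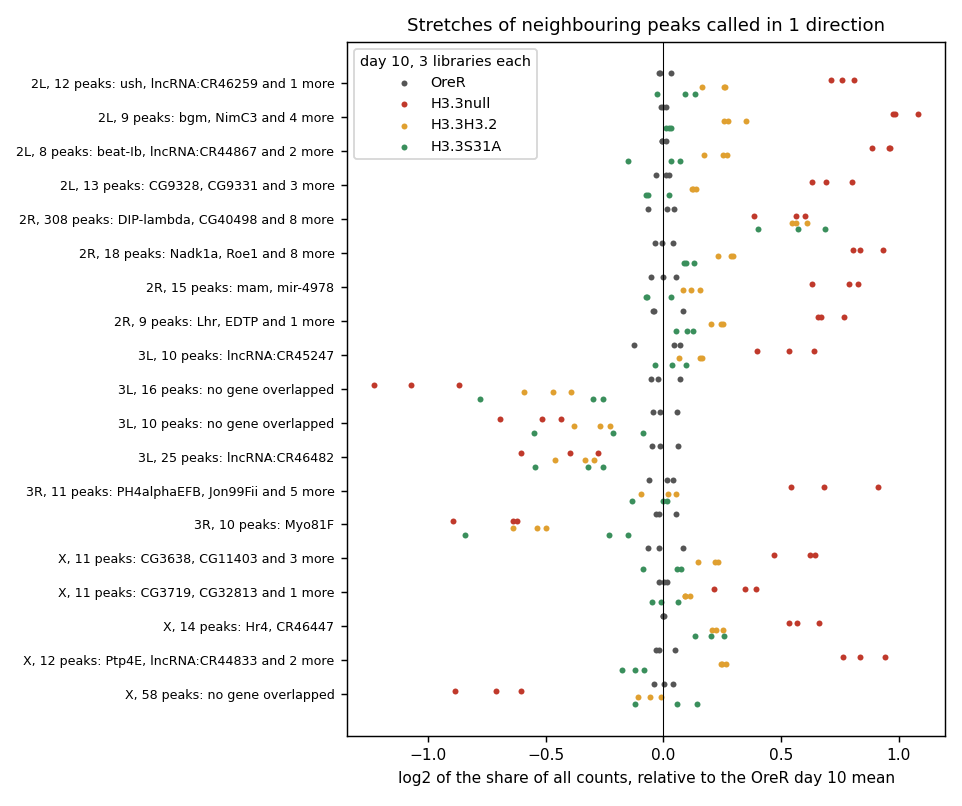
Share of all counts taken by each of the 19 stretches in every day 10 library, as log2 relative to the OreR mean (horizontal axis), with 3 points per genotype. In the 308-peak stretch of 2R all 3 mutants lie above OreR, while in the stretches of ush, mam, Ptp4E and the 58-peak stretch of X the H3.3null points lie outside the range of the other genotypes.

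Across the genome, 518 peaks (4.65%) were higher and 151 (1.35%) lower in H3.3null than in all 3 other genotypes of the same age. All of them were also called against OreR. The comparisons share the H3.3null libraries, so loss of H3.3 and other traits of that stock cannot be told apart at these peaks. Of the 518, only 18 lay in pericentromeric regions, and of the 151, 63 did. Against H3.3H3.2 alone 786 peaks (7.05%) were higher and 406 (3.64%) lower, and against H3.3S31A 1200 (10.8%) and 632 (5.67%).

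Gene groups were read against 15.5% of all peaks higher, 9.0% lower and a median of -0.01. Among genes of neuronal wiring 117 of 251 peaks rose and 12 fell, but DIP-lambda alone gave 105 of the rises, and without it 12 of 131 rose and 12 fell, with a median of -0.05. side-VI, a surface protein of the sidestep family, fell by 0.88 ± 0.14. Ion channel genes had 3 of 77 peaks higher and 11 lower (14.3%). Shawl, a potassium channel, fell at 2L:9414984-9415409 from 80.5 to 101 CPM to 49.2 to 54.9 CPM, and fell by 0.81 ± 0.12 (edgeR adjusted p 1.88e-06), while 1 other Shawl peak rose and 1 fell. Sh, the Shaker potassium channel, rose at 1 of 23 peaks, by 0.39 ± 0.10, and fell at 2, by 0.43 ± 0.13 and by 0.29 ± 0.09. Synaptic vesicle and active zone genes had 8 of 89 peaks higher and 11 lower. Sytbeta, a synaptotagmin, rose by 1.84 ± 0.21 from 16.7 to 25.4 CPM to 76.0 to 84.8 CPM, while Snap25, a SNARE of vesicle fusion, rose at 4 of 17 peaks and fell at 4. Its largest fall, by 1.11 ± 0.21, went from 54.1 to 62.9 CPM to 19.8 to 34.8 CPM, and its largest rise was 0.77 ± 0.15.

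Transmitter genes had 8 of 99 peaks higher and 6 lower, and neuropeptide genes 4 of 34 higher and 1 lower. nAChRalpha1, a nicotinic receptor subunit, rose at 3R:24414567-24415327 from 45.1, 46.2 and 47.3 CPM to 118, 107 and 95.7 CPM, by 1.21 ± 0.13 (edgeR adjusted p 2.04e-09), while another nAChRalpha1 peak fell and nAChRalpha6 fell by 0.51 ± 0.10. Pdfr, the receptor of the clock peptide PDF, rose by 0.56 ± 0.10. A peak of AstA-R1, an allatostatin receptor, fell by 0.42 ± 0.16, a call lost in 7 of 14 other settings, and another rose. Learning and memory genes had 13 of 81 peaks higher and 4 lower, 7 of the rises in Appl and 3 in CASK, the gene that also holds the strong fall above. Pan-neuronal genes had 16 of 75 higher and 8 lower, glial genes 1 of 16 higher, a peak of wrapper whose libraries overlapped and whose call was lost in 4 of 13 other settings. Photoreceptor genes had 1 of 22 higher (rdgB) and 2 lower, led by norpA, the phospholipase C of phototransduction, a call lost without H3.3null replicate 2.

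Transcription factors of neuronal identity had 18 of 135 peaks higher and 9 lower. pdm3, a POU factor, rose at 2R:8335951-8336782 by 0.98 ± 0.10 from 77.8 to 81.0 CPM to 148 to 166 CPM. nub, another POU factor, fell by 0.55 ± 0.09 and was lower in H3.3null than in each other genotype. Genes of the ecdysone response had 32 of 149 peaks higher (21.5%) and 10 lower, and outside the stretches 20 of 135 higher. Hr4, a nuclear receptor, rose at X:1968583-1969778 from 92.4 ± 4.69 CPM to 191 ± 12.2 CPM (SD, n = 3), by 1.05 ± 0.10 (edgeR adjusted p 3.61e-10), while 1 other Hr4 peak fell by 0.26 ± 0.09. Eip75B, a heme-binding nuclear receptor, had 8 of 28 peaks higher and 1 lower. Hox genes had 3 of 28 higher, all in Scr, and 4 lower, in abd-A and Abd-B. Clock genes had 4 of 34 higher and 2 lower: Pdp1, the activator of the second clock loop, rose by 1.00 ± 0.15 from 26.6 to 35.4 CPM to 55.6 to 61.4 CPM. sgg, a kinase of clock proteins, fell by 0.30 ± 0.09, a call lost when H3.3null replicate 3 or OreR replicate 3 was left out.

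Histone variant and chaperone genes had 2 of 17 peaks higher, in His3.3A and Daxx, and 3 lower, all in the H3.3 genes. The replicative histone genes carried no peak in the table. Chromatin regulators had 8 of 77 higher and 4 lower. A peak 260 bp from ph-p, a Polycomb group gene, rose by 0.83 ± 0.10 from 72.4 to 83.8 CPM to 120 to 154 CPM, and was higher than in each other genotype. Among cytosolic ribosomal protein genes 10 of 63 peaks rose and 4 fell, with a median of -0.07, close to the share over all peaks despite RpS9 and RpS23. RpL23 fell by 0.56 ± 0.13 from 52.6 to 66.1 CPM to 31.4 to 44.3 CPM. Transfer RNA genes had 15 of 98 peaks higher, led by tRNA:Phe-GAA-1-7 at 1.04 ± 0.09, and 7 lower, led by tRNA:Val-CAC-1-1 at -0.62 ± 0.15.

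Among genes of energy, stress and defence, respiratory chain genes had 3 of 30 peaks higher and 1 lower. The lower one, at COX4, held 32.9, 40.3 and 40.7 CPM in OreR and 19.7, 36.0 and 16.6 CPM in H3.3null, so the groups overlapped. Its log2 fold change was -0.68 ± 0.19, and it was -0.44 and not called without H3.3null replicate 3. Proteasome genes had 2 of 16 higher, led by Prosalpha7, which went from 26.6 to 38.1 CPM to 73.7 to 79.5 CPM. Heat shock genes had 2 of 23 higher, led by Hsp67Ba, and 2 lower, led by Hsp60A. Innate immunity genes had 4 of 22 higher, led by PGRP-LA, a peptidoglycan recognition protein, and 1 lower, at cact, the inhibitor of Toll signalling factors, a call lost without H3.3null replicate 1 or 3 or OreR replicate 2. Genes of cell death and DNA damage had 7 of 30 higher and 1 lower: Xrp1, a stress-induced bZIP factor, rose by 0.68 ± 0.14 from 33.1 to 40.6 CPM to 56.7 to 59.4 CPM, and kay, the fly Fos, fell by 0.66 ± 0.10.

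Insulin and TOR genes had 2 of 26 peaks higher and 2 lower. A peak beside foxo, the forkhead factor held back by insulin signalling, rose by 0.97 ± 0.14 from 42.0 to 49.1 CPM to 83.6 to 99.0 CPM and was higher than in each other genotype, while Lnk, an adaptor of the insulin receptor, had a log2 fold change of -0.44 ± 0.14 with overlapping libraries, a call lost without H3.3null replicate 3 or OreR replicate 3. Detoxification genes had 2 of 20 higher, led by Cyp9f2. Chemosensory receptor genes had 6 of 18 higher and 6 lower. An ionotropic receptor, Ir41a, rose at 2R:4942692-4943130 by 2.24 ± 0.19 from 9.33 to 10.7 CPM to 41.1 to 54.2 CPM, with 45.1 to 59.0 CPM in the other mutants. A further Ir41a peak rose by 0.64 ± 0.13, and 2 fell, by 0.40 ± 0.13 and by 0.34 ± 0.11. Markers of other tissues gave 2 of 8 hemocyte peaks higher, 2 of 9 fat body peaks higher and 1 lower, and 3 of 11 muscle peaks lower. A peak shared by CG13743 and PPO2, a prophenoloxidase of crystal cells, rose by 1.06 ± 0.14 from 69.8 to 83.0 CPM to 122 to 182 CPM. It stood at 124 to 178 CPM in the other mutants. The 3 muscle falls were all in Mef2, a myogenic factor that neurons also use, led by 2R:9948189-9948656 at -0.74 ± 0.10.

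Of the 26 strongest higher peaks chosen across these groups, 23 were also called higher at day 1 and 20 were apart from both other mutants. Over all higher calls the shares were 66.6% and 29.96%. Of the 24 strongest lower peaks, 13 were also called lower at day 1 and 5 were apart from both other mutants. Over all lower calls the shares were 57.7% and 15.1%. The 26 and 24 peaks were chosen as the strongest of their groups, so their counts do not stand for all calls.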

How the data were processed

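The authors deposited whole-number read counts per peak, 1 table over a shared peak set. Per the submitters' processing notes the build was dm6, and STAR 2.7.7a, SAMtools 1.9, bedtools 2.26, deepTools 3.2.0, Subread 2.0.1 and DESeq2 1.34.0 were used, with roles and the peak caller not given in the sources used here. Per the labels' protocols RNA was extracted, although the molecule is genomic DNA; the series calls the data ATAC-seq. Handling of duplicates, mitochondrial reads and the transposase offset is not stated and can affect peak heights.

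All 24 libraries entered 1 model in edgeR 4.0.16, run under R 4.3.3 with limma 3.58.1: TMM scaling (0.970 to 1.02), filterByExpr (0 peaks removed), 1 coefficient for each of 8 groups, 16 residual degrees of freedom, robust glmQLFit and glmQLFTest, and Benjamini-Hochberg adjustment over all peaks. Peaks were called at an adjusted p under 0.05. The biological coefficient of variation was 8.96% and the median SE of a log2 fold change 0.12. CPM use TMM-scaled totals. A peak was taken as apart from each other genotype by the largest of 3 p-values, if the signs agreed. On simulated counts with 200 of 11145 peaks changed at day 10, 55.9% of changes of 0.5, 98.5% of 1 and 100% of 2 on the log2 scale were called, with 16 false calls. The simulated share of changed peaks was below the 24.5% called in the data. The adjusted threshold depends on that share, so these rates hold for the simulated setting only. Replicates differed by more than counting noise (chi-square per degree of freedom 2.70 to 5.91). Counts are reads without molecular identifiers, and bounds against 3 counts cover counting error only.

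Genes came from a RefSeq table of Release 6, without strand, exons or sequences. A gene end stood no more than 500 bp from 37.3% of peak centres, and from 18.4% to 18.6% once peaks were shifted, so the coordinate frames were taken as one. A peak belongs to genes it overlaps, or else to the nearest within 1 kb. Coordinates are as the table gives them. Exon, intron and UTR positions and promoter motifs are not given.

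Members and lists were chosen with earlier results of these data known. Named peaks are the 12 higher and 12 lower with the smallest p and no overlap of groups, spaced by 10 kb; all H3.3 gene peaks; in each of 30 lists the strongest in each direction; the 6 genes with most calls in 1 direction (at least 3); 5 in each direction apart from the other genotypes; and called peaks with a group at 3 counts or fewer. Further peaks of mam, kirre, ush, rl, RpS23, lncRNA:CR44365 and lncRNA:CR44366, a further peak at the 2L tip, counts for single genes within a list, and the stretches were chosen after their values were seen. Alternatives were other scaling, DESeq2 1.42.0, filters, fewer groups, a replicate block, omitted replicates and omission of 2R.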

Additional observations from a re-analysis of the deposited data

How the results depend on the processing

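The day 10 counts kept within 1.5 times their values under every setting tried: 1682 to 1740 higher and 979 to 1089 lower under other scalings, filters, DESeq2, the compared groups alone or a replicate block, and 1424 to 1663 higher and 717 to 932 lower with 1 library left out. A refit without the peaks of arm 2R, which rescales the libraries, called 1211 peaks higher and 731 lower. Chosen after seeing the data, leaving out the stretches gave 1325 higher and 899 lower, and leaving out pericentromeric regions and chromosome 4 gave 1313 and 689. Peaks lower in H3.3null than in each other genotype went from 151 to 100 and to 88 under these restrictions, which test fewer peaks. With 1 library left out they numbered 120 to 141, and the higher ones 409 to 490. The test of day 10 against day 1 effects, with 0 calls as reported, gave 7 with DESeq2, 2 with library totals alone, 4 with only the groups compared, 3 with the replicate block and 0 to 4 with 1 library left out; the cause was not tested. Same-numbered libraries of the groups did not deviate together (correlations 0.20, -0.10 and -0.15), so the numbers were not used as pairs; with the block 1740 peaks were higher and 1040 lower. Of 172 named peaks 152 kept their side of the threshold in all alternatives and none reversed. The median SE of 0.12 on the log2 scale limits which small changes are called. It holds counting error and the spread between replicates together. Day 1 calls stayed within 1.5 times as well.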

Other observations

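Further genes with several changed peaks were chosen after their values were seen. Except for part of Myo81F they lay outside the stretches, and each count is beside 15.5% of all peaks higher and 9.0% lower at day 10 (edgeR). scrib, a scaffold of cell polarity, rose at 6 of 8 peaks with a median log2 fold change of 0.62, and fdl, a hexosaminidase, at 6 of 8 with a median of 0.53. hppy, a protein kinase, rose at 4 of 5 peaks with a median of 1.21, and its median log2 difference from H3.3H3.2 was 0.17 and from H3.3S31A 0.28. lace, a subunit of serine palmitoyltransferase, fell at 3 of 4 peaks with a median of -0.64. for, the cGMP-dependent protein kinase of foraging behaviour, fell at 2L:3632167-3632459 by 1.27 ± 0.23 and at 2L:3657325-3657763 by 0.89 ± 0.11. Myo81F, next to the 3R centromere, had 50 of 175 peaks lower and 6 higher, with log2 fold changes from -2.05 to 2.31. Of its peaks 10 form the 3R stretch described above, where 8 fell.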
